A study of Homo sapiens with 6 samples.

Results

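The MYC, MAX and MXD network is a family of transcription factors that compete for the same DNA element. Its members were taken as the rows of the deposited count table whose symbol is MYC, MAX, MXD1, MXD3, MXD4, MXI1, MNT, MLX, MLXIP or MGA, which gave 10 genes of the 31582 listed. RNA was sequenced from MDA-MB-231, a widely used line of human breast cancer that lacks hormone receptors and has a mesenchymal character. The knockdown group holds 3 libraries from cells carrying an shRNA against CALR, the gene of the endoplasmic reticulum chaperone calreticulin, and the control group 3 libraries from control cells that the labels call NTC. Both lines were grown in the same serum-containing medium and harvested before confluence. The labels do not say which shRNA sequence was used, whether each line is a clone or a pool, or whether the libraries of a group are separate cultures, so the p-values measure the spread between these libraries, which may be partly technical. The title of the series links calreticulin to activation of the Wnt/β-catenin pathway, and MYC is a textbook target gene of that pathway.

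MAX is the common partner of the network. MYC-MAX dimers bind the E-box CACGTG and recruit coactivators, while the MXD proteins, MNT and MGA bind the same element with MAX and recruit corepressors. A parallel branch is built on MLX, whose main partners MLXIP (also called MondoA) and MLXIPL (ChREBP) respond to glucose phosphates. In tumour cells high MYC supports ribosome production, nucleotide synthesis and cell growth.

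Library totals lay between 34639090 and 42425310 counts. CALR itself, on chromosome 19 at 12938578 to 12944489 of GRCh38, stood at 493, 66.4 and 110 CPM (counts scaled to a common library size) in knockdown replicates 1 to 3, against 1213, 979 and 926 CPM in control replicates 1 to 3. Knockdown replicate 1 thus kept 47.5% of the control mean, replicate 2 kept 6.39% and replicate 3 kept 10.6%. The knockdown libraries also differed more among themselves than the controls did, with a chi-square per gene of 105 to 199 between knockdown pairs and 11.8 to 48.1 between control pairs. The line's mesenchymal markers were abundant except SPARC, with VIM at 1082 to 1317 FPKM (a level per transcript length) in knockdown and 795 to 847 FPKM in control libraries. All 6 of these markers had a log2 fold change above 0, with a median of 0.44 against −0.00072 over all genes tested. In edgeR 2 of them (33.3%) were higher at an unadjusted p under 0.05, where 8.17% of all genes were higher and 15.5% in either direction. The groups were apart for 1 of the 6, and FN1 and CAV1 each had a knockdown library below all controls. The part of these markers in the results below was not tested. ESR1 was at most 0.05 FPKM in any library, but other luminal markers were present. KRT18 was at 81.5 to 87.5 FPKM in knockdown and 76.9 to 105 FPKM in control libraries. ERBB2 was at 4.77 to 6.90 and 6.24 to 6.54 FPKM, EPCAM at 2.61 to 4.17 and 3.74 to 4.14 FPKM. GATA3 was higher in knockdown with groups apart in CPM (log2 fold change 0.48, unadjusted p = 0.048 and adjusted p = 0.319 in edgeR). FOXA1 was lower with groups that overlap in CPM, at 0.29 to 0.53 FPKM in knockdown and 0.50 to 0.77 FPKM in controls. Its log2 fold change was −0.65 (unadjusted p = 0.078 and adjusted p = 0.369 in edgeR). PGR was at 0.04 to 0.14 and 0.05 to 0.12 FPKM. The median log2 fold change was 0.04 over 7 luminal markers, with 4 above 0 and 3 below. Of 5 blood markers in the table, CD14 was highest at 0.13 to 0.48 FPKM in knockdown and 0.42 to 0.52 FPKM in control libraries, and PTPRC was at most 0.04 FPKM. Of 8 fibroblast and endothelial markers, LUM was highest at 2.13 to 3.69 FPKM in knockdown and 1.71 to 3.14 FPKM in control libraries, while PDGFRA, VWF and CDH5 were at most 0.01 FPKM. The 4 tested of these 8 had a median of −0.15 that joins opposite values. DCN was lower, at 0 to 0.06 FPKM in knockdown and 0.12 to 0.25 FPKM in controls, and PECAM1 higher, at 0.22 to 0.54 FPKM and 0.12 to 0.22 FPKM, both with groups apart in CPM and an unadjusted p under 0.05 in edgeR. The part of these low levels in the results was not tested.

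MYC lay below every control in all 3 knockdown libraries, as did MXD1, MGA and, by a small margin, MXI1, but no member passed the adjusted threshold. MLXIP overlapped the controls with a log2 fold change as large as that of MXI1 (−0.20 for both). MAX, MNT and MXD4 overlapped them with values near 0, and MLX and MXD3 overlapped them with positive values. Genes were compared with edgeR's quasi-likelihood test over all 16394 genes tested, with Benjamini-Hochberg adjusted p-values and a threshold of 0.05. All 10 members passed the filter on low counts, and 0 passed the adjusted threshold in edgeR, as did 0% of all genes. CALR itself, at a log2 fold change of −2.22, did not pass either. At an unadjusted p under 0.05 there were 3 members, MYC, MXD1 and MGA, all lower in knockdown, which is 30% of the 10 against 7.36% of all genes tested. No member was higher at that level, where 8.17% of all genes were and 15.5% were in either direction. The count of 3 rests on single libraries: it was 1, MYC alone, without knockdown replicate 1 or 3 or control replicate 2 or 3, and also with DESeq2 size factors. Without control replicate 1 it was 2, MYC lower and MXD3 higher, and without knockdown replicate 2 it was 5, with MXD3 and MLX higher. The genes also changed with the processing while every library was kept. A GC correction gave MYC, MGA and MLXIP (−0.37) without MXD1, and unfiltered FPKM gave MYC and MXD1 alone. A replicate block, or leaving out the low-count filter, added MXD3, and the block with the GC correction added MXD3 and MLXIP. The 3 knockdown libraries lay wholly below the 3 controls for 4 members, MYC, MXD1, MXI1 and MGA, and wholly above them for 0. Among all genes, 11.2% lay wholly below, 11.3% wholly above and 22.5% one or the other. The members' median log2 fold change was −0.13, against −0.00072 over all genes. DESeq2 passed 1 member, MYC, at 3.23% of all genes. Without knockdown replicate 2, edgeR passed 3 members, MYC, MLX and MGA, at 15.5% of all genes, and without the low-count filter it passed MYC, at 3.13%.

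**Figure D1:**
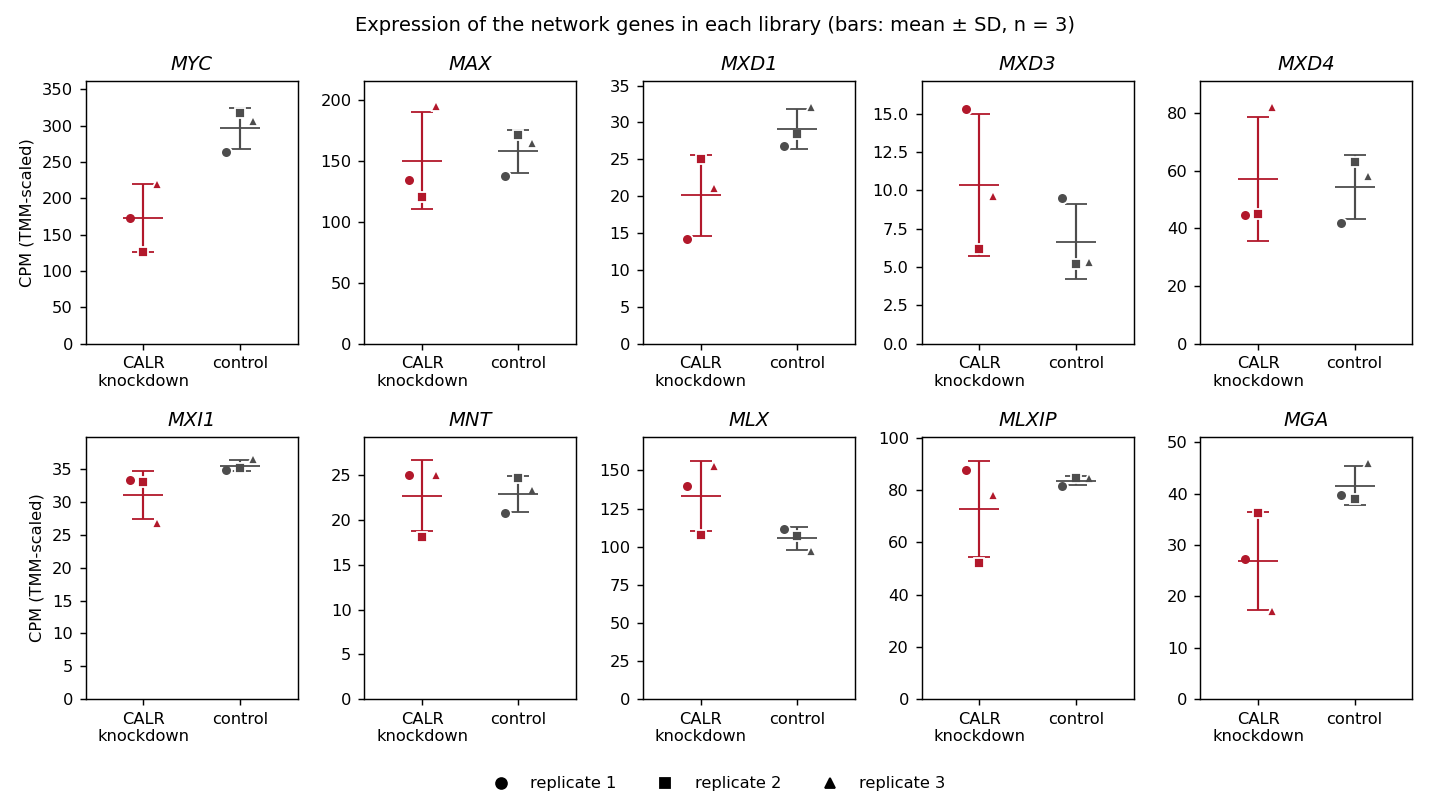
Expression of the 10 network genes in CPM (vertical axes, from 0) in the 3 CALR knockdown libraries (red, left) and the 3 control libraries (grey, right). Symbols mark the replicate number and bars the mean and SD. The groups are apart for MYC, MXD1, MXI1 and MGA, with knockdown below control, and overlap for the other 6 genes.

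MYC, the activator of the network, lies on chromosome 8 at 127735434 to 127741434 (GRCh38, plus strand, ENSG00000136997.14). It had 6071, 5057 and 8178 counts in knockdown libraries and 9980, 11581 and 13396 in controls, so counting error is small beside the spread between libraries. As normalised expression this was 173, 126 and 219 CPM in knockdown replicates 1 to 3, against 264, 318 and 307 CPM in control replicates 1 to 3. The highest knockdown library stayed below the lowest control. MYC had a log2 fold change of −0.78 ± 0.22 (SE), with an edgeR p of 0.0058 before adjustment and an adjusted p of 0.20. Permuting the 3 and 3 libraries in an exact test (two-sided, on log2 CPM) returned p = 0.1, and no smaller value is possible with so few. In bulk RNA, fewer cells with a transcript and less transcript per cell cannot be told apart.

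MYC and CALR did not follow the same order within the knockdown group. MYC was at 58.5% of its control mean in replicate 1, where CALR was least reduced, at 42.4% in replicate 2 and at 74.0% in replicate 3. The library with the lowest CALR was therefore also the one with the lowest MYC, but replicate 3, with little CALR left, had the most MYC. Without replicate 1 the MYC log2 fold change was −0.78, without replicate 2 it was −0.59 and without replicate 3 it was −0.97. The unadjusted p stayed under 0.05 with any 1 library left out.

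MAX, the shared partner of MYC, the MXD proteins, MNT and MGA, lies on chromosome 14 at 65006174 to 65102695. It stood at 134, 120 and 195 CPM in knockdown and 138, 171 and 164 CPM in control libraries. Knockdown replicates 1 and 2 were below all controls and replicate 3 above them, so the groups overlap. Its log2 fold change was −0.07 ± 0.21 (SE), an interval that spans 0, and its sign turned without knockdown replicate 1 (0.0036) or replicate 2 (0.066).

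Since MYC and MAX are measured in the same library, their ratio does not depend on how libraries are scaled. MYC stood at 1.77, 1.43 and 1.54 times MAX on the FPKM scale in knockdown replicates 1 to 3, against 2.62, 2.54 and 2.56 times in the controls. Knockdown libraries averaged 1.58 ± 0.173 and controls 2.57 ± 0.0423 (SD, n = 3 each). The controls were nearly identical in this ratio although MAX itself varied among them, and all 3 knockdown libraries were well below. Set against the summed FPKM of MXD1, MXD3, MXD4, MXI1, MNT and MGA, the repressor partners, MYC was at 1.74, 1.33 and 1.84 times in knockdown and 2.64, 2.76 and 2.67 times in control libraries. These repressors summed to 31.1 ± 1.96 FPKM in knockdown and 35.9 ± 3.71 FPKM in controls (SD, n = 3), with overlapping ranges.

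**Figure D2:**
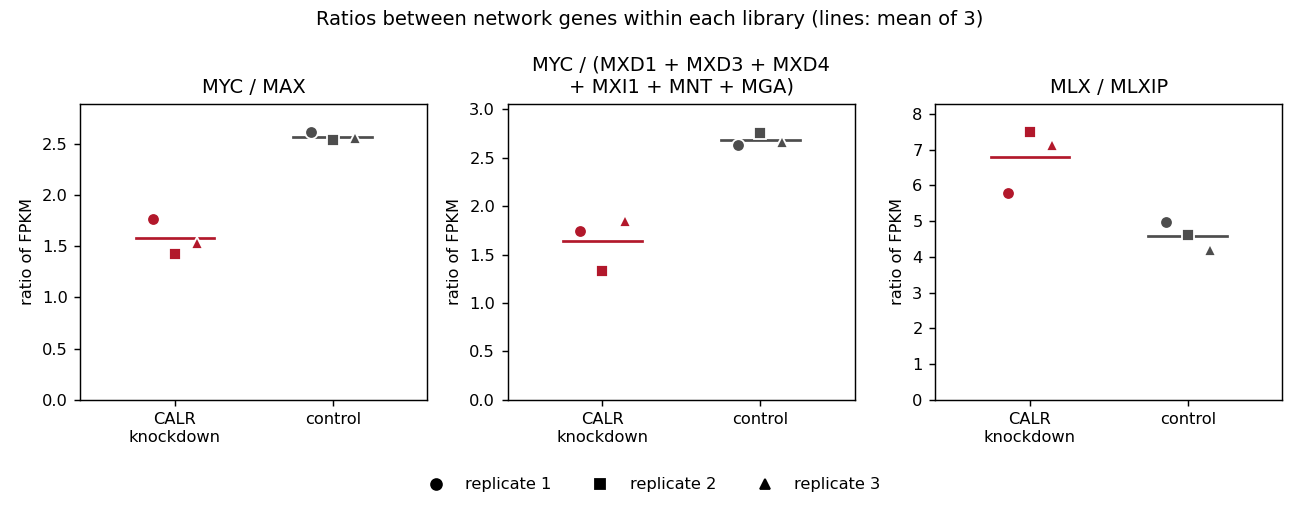
Ratios of FPKM within each library (vertical axes, from 0) for MYC over MAX, MYC over the sum of 6 repressor partners, and MLX over MLXIP. Points are the 3 CALR knockdown libraries (red, left) and the 3 controls (grey, right), and lines are group means. The MYC ratios are 1.33 to 1.84 in knockdown and 2.54 to 2.76 in control libraries, and MLX over MLXIP is 5.77 to 7.50 and 4.19 to 4.98.

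The MXD genes encode small proteins that pair with MAX and bring the SIN3-HDAC corepressor to E-boxes, often as cells leave the cycle and differentiate. They went different ways. MXD1, on chromosome 2 at 69897688 to 69942945, was at 14.2, 25.0 and 21.1 CPM in knockdown and 26.8, 28.4 and 32.1 CPM in control libraries. Every knockdown library was below every control, although replicate 2 came close. MXD1 had a log2 fold change of −0.53 ± 0.23 (SE), with edgeR p-values of 0.049 unadjusted and 0.320 adjusted. Without knockdown replicate 1, the lowest library, it was −0.33.

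MXI1, on chromosome 10 at 110207605 to 110287365, was at 33.3, 33.1 and 26.8 CPM in knockdown, just under the 34.9, 35.2 and 36.5 CPM of the controls. Only replicate 3 was clearly lower, and the log2 fold change of −0.20 ± 0.17 (SE, unadjusted p = 0.278 and adjusted p = 0.577 in edgeR) became −0.08 without it. MXD3, on chromosome 5 at 177301461 to 177312757, had the largest positive value of the network. It was at 15.3, 6.16 and 9.60 CPM in knockdown and 9.47, 5.16 and 5.32 CPM in control libraries. The groups overlap because control replicate 1 nearly equalled knockdown replicate 3 and exceeded replicate 2. Its log2 fold change was 0.64 ± 0.37 (SE, unadjusted p = 0.122 and adjusted p = 0.426 in edgeR), 0.25 without knockdown replicate 1 and 0.98 without control replicate 1. Other annotated genes overlap 18% of the MXD3 exon bases on the same strand and 22.5% on the other, so some of its reads may belong to a neighbour.

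MXD4, on chromosome 4 at 2247432 to 2262294, was at 44.5, 44.8 and 82.0 CPM in knockdown and 41.8, 62.9 and 57.9 CPM in controls. Replicate 3 of the knockdown was above every control and the other two lay near the lowest control. Its log2 fold change of 0.07 ± 0.27 (SE) had no stable sign, since it was −0.26 without knockdown replicate 3 and −0.09 when scaled by library size alone.

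MNT and MGA are the large repressors of the network. MNT is expressed in most cells and opposes MYC at shared target genes. The gene, on chromosome 17 at 2384060 to 2401118, was at 25.1, 18.1 and 25.1 CPM in knockdown and 20.8, 24.7 and 23.4 CPM in control libraries, with a log2 fold change of −0.01 ± 0.20 (SE). Without knockdown replicate 2 the value was 0.13, without control replicate 2 it was 0.046 and without the low-count filter 0.0046. MGA carries a T-box besides its MAX-binding domain and is the scaffold of the Polycomb complex PRC1.6. It lies on chromosome 15 at 41621224 to 41773081 and was at 27.3, 36.2 and 17.2 CPM in knockdown, against 39.7, 39.0 and 45.9 CPM in control libraries. All knockdown libraries were lower, replicate 3 by the most and replicate 2 by little. For MGA the log2 fold change was −0.63 ± 0.26 (SE), with edgeR p-values of 0.041 unadjusted and 0.304 adjusted. It was −0.37 without knockdown replicate 3 and −0.90, with an adjusted p of 0.033, without replicate 2.

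The order of the knockdown libraries thus differed from gene to gene. Replicate 2 was lowest for MYC, MAX, MXD3, MNT, MLX and MLXIP, replicate 1 for MXD1, and replicate 3 for MXI1 and MGA, while replicates 1 and 2 were level for MXD4.

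MLX, the centre of the parallel branch, lies on chromosome 17 at 42567068 to 42573239. It was at 139, 108 and 153 CPM in knockdown and 112, 107 and 97.4 CPM in control libraries. Replicates 1 and 3 of the knockdown exceeded every control, whereas replicate 2 lay among them. Its log2 fold change was 0.34 ± 0.17 (SE, unadjusted p = 0.085 and adjusted p = 0.379 in edgeR), and 0.47 with an adjusted p of 0.047 without replicate 2. A gene on the other strand overlaps 18.1% of its exon bases. MLXIP, the glucose-sensing partner, lies on chromosome 12 at 122078722 to 122147347. It was at 87.8, 52.2 and 78.0 CPM in knockdown and 81.6, 84.7 and 84.5 CPM in the closely grouped controls, with a log2 fold change of −0.20 ± 0.20 (SE) that was −0.01 without knockdown replicate 2. With the GC correction the MLXIP value was −0.37 ± 0.15 (SE), with an adjusted p of 0.233 in edgeR. On the FPKM scale MLX stood at 5.77, 7.50 and 7.12 times MLXIP in knockdown and at 4.98, 4.60 and 4.19 times in control libraries, so the ratio was higher in all 3.

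Related genes outside the list were scarce. MLXIPL, the second glucose-responsive partner of MLX, was at 2.20, 0.87 and 1.72 CPM in knockdown and 5.05, 2.03 and 1.6 CPM in control libraries, which overlap. MYCL, a MYC homologue first found in lung cancer, had 8, 3 and 5 counts in knockdown and 11, 16 and 21 in controls, too few to give its log2 fold change of −1.47 ± 0.51 (SE) much weight. MYCN had no row under that symbol in the count table used, so it was not analysed here.

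**Figure D3:**
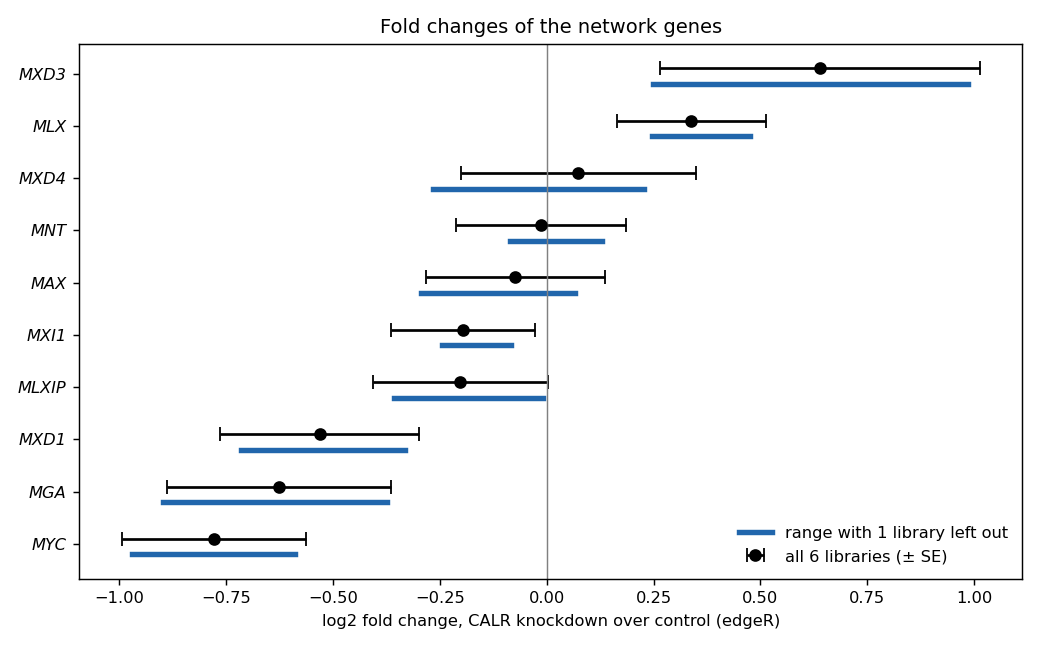
Log2 fold changes of the 10 network genes, CALR knockdown over control, from edgeR (horizontal axis). Black points are all 6 libraries with their SE, and blue bars the range of values with 1 library left out. The blue bars of MYC, MGA, MXD1, MXI1 and MLXIP stay below 0, that of MLXIP only just (up to −0.008). Those of MLX and MXD3 stay above 0, while those of MAX, MNT and MXD4 cross it.

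Levels per transcript length show which members dominate. In control libraries the order by mean FPKM was MYC (96.7 ± 11.5, SD, n = 3), MLX (39.7 ± 1.87), MAX (37.7 ± 5.04), MXD4 (13.1 ± 2.92), MLXIP (8.68 ± 0.406), MXI1 (8.58 ± 0.426), MXD1 (5.07 ± 0.600), MNT (4.50 ± 0.486), MGA (2.68 ± 0.298) and MXD3 (1.96 ± 0.665). Neighbours in that order whose ranges overlap were MLX and MAX, MLXIP and MXI1, MXD1 and MNT, and MGA and MXD3. In knockdown libraries MYC was still first in the mean, at 51.0 ± 10.3 FPKM, but its range overlapped that of MLX at 45.8 ± 4.81 FPKM. MAX (32.4 ± 6.45), MXD4 (12.5 ± 3.91), MXI1 (6.91 ± 1.23) and MLXIP (6.86 ± 1.44) followed, then MNT (4.05 ± 0.477), MXD1 (3.24 ± 1.05), MXD3 (2.79 ± 1.19) and MGA (1.62 ± 0.685). The ranges of MXI1 and MLXIP overlapped there, as did those of each neighbouring pair from MNT to MGA. MYC made up 27.9% to 32.1% of the summed FPKM of the 10 genes in knockdown libraries and 42.6% to 45.0% in controls. Among the 31356 genes of the FPKM table it ranked 1162 to 1642 from the top in knockdown and 547 to 692 in control libraries.

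**Figure D4:**
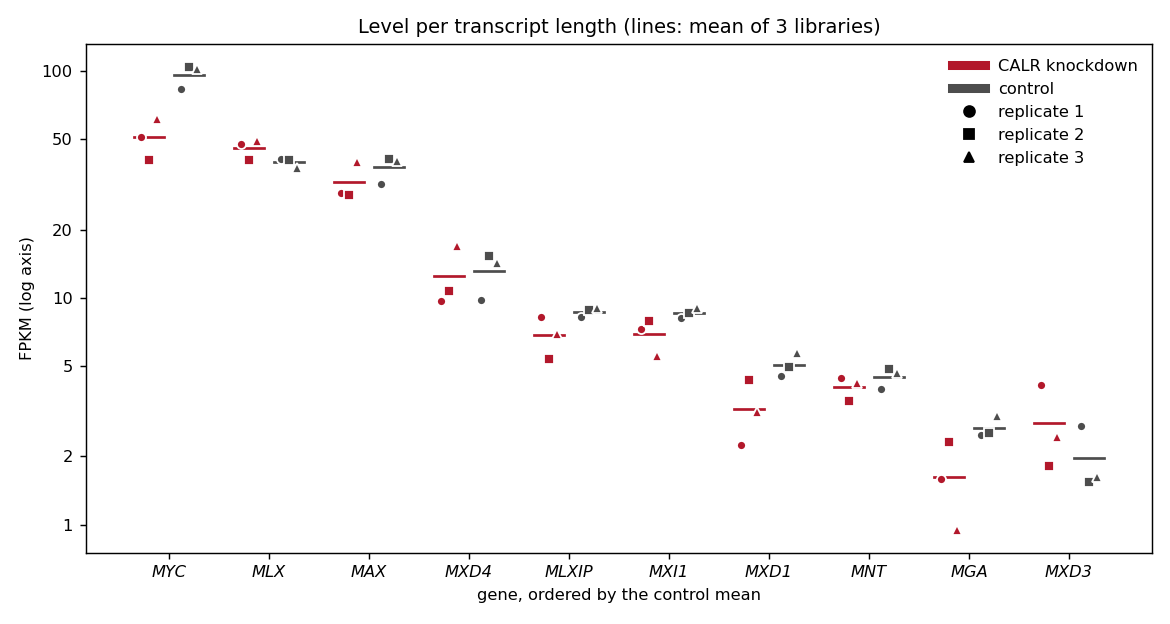
FPKM of the 10 network genes on a log axis, ordered by the control mean. Points are the 3 CALR knockdown libraries (red, left of each pair) and the 3 controls (grey, right), with lines at the group means. MYC is at 40.6 to 61.3 FPKM in knockdown and 83.4 to 104 FPKM in control libraries, and the knockdown values of MYC and MLX overlap.

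Target genes of the network were examined next, and the element that both MYC-MAX and the repressor dimers read is shown in the promoters of members and targets. RefSeq promoter windows of 300 bases (GRCh38.p14), 250 before and 50 after a start site, were held for 9 of the 10 members, all but MYC. A search for CACGTG, which reads the same on both strands, found it in 3 of the 9, namely MLX, MNT and MXD4, where 8.77% of all 27305 genes with a window had it. Counted by window, it was in 3 of the members' 14 (21.4%) and in 7.26% of all 35116. It was also in 19 of the 43 genes with a window (44.2%) among the MYC-activated genes described below. The lines give 30 bases around the E-box in capitals, 5′ to 3′ on the gene's strand, for these members and for 4 targets whose values follow.
MLX, chr17:42567038-42567067, plus strand: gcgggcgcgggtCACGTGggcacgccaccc
MNT, chr17:2401236-2401265, minus strand: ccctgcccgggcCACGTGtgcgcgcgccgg
MXD4, chr4:2262330-2262359, minus strand: gggccgggccacCACGTGctgttgctaagc
SRM, chr1:11060200-11060229, minus strand: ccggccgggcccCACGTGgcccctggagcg
WDR43, chr2:28894658-28894687, plus strand: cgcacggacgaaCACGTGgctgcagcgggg
CDK4, chr12:57752394-57752423, minus strand: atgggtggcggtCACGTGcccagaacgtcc
ODC1, chr2:10448024-10448053, minus strand: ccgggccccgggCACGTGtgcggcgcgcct
The E-box of MLX begins 50 bases before the start site, that of ODC1 29 bases before it and that of WDR43 at base 3 after it. CDK4 and ODC1 hold further copies. A match is only a description of the letters, and binding was not measured.

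Among 53 genes that MYC is known to activate, 33 had log2 fold changes above 0 and 20 below, where the median over all genes tested was −0.00072. The edgeR test at p under 0.05 before adjustment found 0 higher and 2 lower of 20 ribosome biogenesis genes, whose median was a log2 fold change of −0.03 (−0.16 to 0.05 over the alternatives). The 2 were WDR43, a factor of small-subunit assembly at 31.2, 44.6 and 33.1 CPM in knockdown against 52.4, 51.8 and 57.5 CPM in control libraries (log2 fold change −0.57 ± 0.19, SE), and POLR1B, a subunit of RNA polymerase I, at −0.41 ± 0.16. Of 13 genes of nucleotide and polyamine synthesis, 1 was higher and 0 lower, with a median of 0.24 (0.09 to 0.29). That one was SRM, spermidine synthase, at 138, 103 and 171 CPM in knockdown against 91.5, 96.4 and 83.6 CPM in control libraries (0.60 ± 0.20). ODC1, ornithine decarboxylase and a classical MYC target, was at 222, 194 and 454 CPM in knockdown and 251, 352 and 349 CPM in controls. Replicates 1 and 2 of the knockdown were thus below all controls and replicate 3 above them. Its value of −0.13 ± 0.31 was positive without knockdown replicate 1 (0.033) or 2 (0.094).

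Of 20 MYC-activated genes of growth and translation, 2 were higher and 1 lower by the same criterion, and the median was 0.19 (0.04 to 0.25). The higher ones were the glycolytic enzyme ENO1, at 2970, 1696 and 2646 CPM in knockdown against 1684, 1609 and 1452 CPM in control libraries (0.62 ± 0.22), and the G1 kinase CDK4, at 322, 206 and 404 CPM against 238, 200 and 175 CPM (0.60 ± 0.25). The groups were apart for ENO1, narrowly in replicate 2, and overlapped for CDK4. Annotated genes on the other strand overlap 43.2% of the CDK4 exon bases, so some of its reads may belong to them. The lower one was the cyclin CCND2, scarce at 0.60, 0.75 and 2.15 CPM in knockdown and 2.46, 4.8 and 4.70 CPM in controls. Over the 3 lists together, 3 of 53 genes were higher and 3 lower, 11.3% in all against 15.5% of all genes, and their median log2 fold change was 0.16. Adjusted p-values from edgeR for all genes of these lists were at least 0.208.

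Of 8 tested genes that MYC is known to repress, none was higher and 1 was lower by this criterion, 12.5% against 15.5% of all genes. The median of the 8 was −0.44 (−0.59 to −0.28). The lower one was CDKN2B, the inhibitor p15 of CDK4, with 1, 0 and 59 counts in knockdown and 303, 106 and 129 in control libraries. It was scarce even in controls, at 0.71 to 1.88 FPKM. Counts this low in knockdown give no firm fold, and its log2 fold change of −3.10 ± 1.17 (SE) ranged from −8.11 to −2.46 with 1 library left out. Knockdown replicate 3 was far closer to the controls than the other two. The median differences of this list from the control mean were −0.78 and −0.88 in knockdown replicates 1 and 2 and 0.04 in replicate 3.

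**Figure D5:**
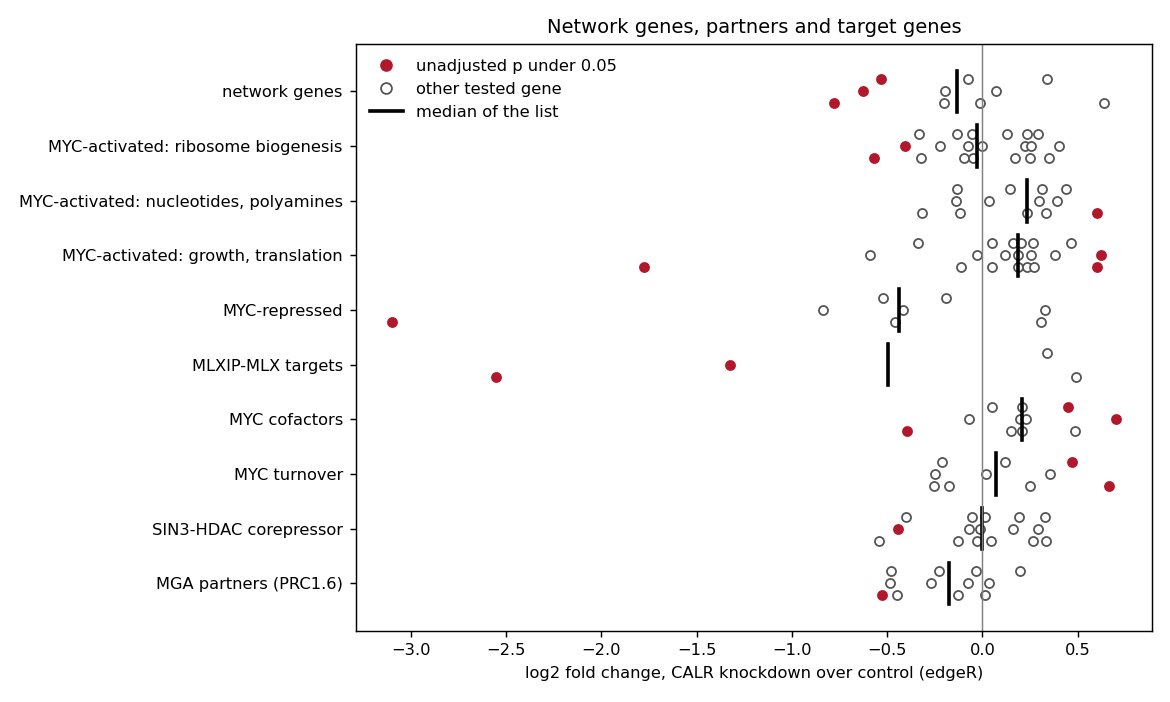
Log2 fold changes from edgeR (horizontal axis) for the 10 network genes and for each tested gene of 9 lists of partners and targets (rows). Filled red points have an unadjusted p under 0.05, open points do not, and black bars are medians. The medians run from −0.49 for MLXIP-MLX targets to 0.24 for MYC-activated genes of nucleotide and polyamine synthesis, and the lowest points are CDKN2B and ARRDC4.

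Targets of the MLX branch gave opposite values. TXNIP, the glucose-induced inhibitor of glucose uptake and best-known target of MLXIP-MLX, was at 40.5, 38.2 and 119 CPM in knockdown, against 171, 166 and 159 CPM in control libraries. All knockdown libraries were below all controls, replicates 1 and 2 by far and replicate 3 by less. TXNIP had a log2 fold change of −1.32 ± 0.40 (SE), with edgeR p-values of 0.0098 unadjusted and 0.219 adjusted. Without replicate 3 it was −2.06, with an adjusted p of 0.0073. ARRDC4, a related arrestin and another target of the branch, had 0, 0 and 23 counts in knockdown and 52, 39 and 53 counts in controls, or 0, 0 and 0.62 CPM against 1.38, 1.07 and 1.21 CPM. Again replicate 3 held the most among the knockdown libraries, and counts this low give no firm fold. The other 2 genes of that list, which respond to many other inputs too, were the hexokinase HK2, at 0.34 ± 0.22, and the regulatory enzyme PFKFB3, at 0.49 ± 0.23. The list's median of −0.49 therefore averages opposite values, and its sign turned in some alternatives (−0.76 to 0.30). In knockdown replicates 1 and 2, where TXNIP was lowest, MLX stood at 132% and 102% of its control mean and MLXIP at 105% and 62.5%. In replicate 3, where TXNIP was highest among the knockdown libraries, MLX was above every control and MLXIP below every control. Whether TXNIP follows either gene was not tested.

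TXNIP is shown because its promoter holds a pair of E-box-like CACGAG elements, known as the carbohydrate response element, and MLX because it is the member whose promoter E-box lies nearest its start. The 250 bases before each RefSeq start site follow, with CACGAG in capitals for TXNIP and CACGTG for MLX. The ARRDC4 window of 30 bases around its E-box is added.
TXNIP, chr1:145996580-145996829, minus strand: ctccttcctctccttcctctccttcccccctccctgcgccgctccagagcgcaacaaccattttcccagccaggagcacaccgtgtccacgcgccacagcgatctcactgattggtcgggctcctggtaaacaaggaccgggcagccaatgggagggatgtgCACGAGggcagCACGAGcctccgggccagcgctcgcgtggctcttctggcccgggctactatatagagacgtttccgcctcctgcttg
MLX, chr17:42566850-42567099, plus strand: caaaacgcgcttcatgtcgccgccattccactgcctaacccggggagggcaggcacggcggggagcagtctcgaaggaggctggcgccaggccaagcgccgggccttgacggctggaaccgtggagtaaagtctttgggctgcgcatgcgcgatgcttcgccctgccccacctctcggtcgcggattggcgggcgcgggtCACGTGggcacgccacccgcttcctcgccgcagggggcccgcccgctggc
ARRDC4, chr15:97960481-97960510, plus strand: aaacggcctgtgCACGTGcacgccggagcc
The 2 elements of TXNIP begin 88 and 77 bases before the start site and are 5 bases apart. CACGAG on either strand occurs in 8.18% of all genes with a window and in 0 of the 9 members with one.

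Of 11 cofactors of MYC, 9 had log2 fold changes above 0, where the median over all genes tested was −0.00072. At an unadjusted p under 0.05 in edgeR, 2 were higher and 1 lower, 27.3% in all against 15.5% of all genes tested. The median of the 11 was 0.21 (0.06 to 0.30). KAT5, the acetyltransferase TIP60, was at 75.2, 57.0 and 100 CPM in knockdown and 44.1, 51.4 and 47.2 CPM in control libraries (0.70 ± 0.22), with 38.6% of its exon bases overlapped by a gene on the other strand. RUVBL2, an ATPase of the same complex, was at 0.45 ± 0.18.

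Among 10 genes that stabilise or degrade MYC protein, 2 were higher and 0 lower before adjustment, 20% against 15.5% of all genes. The median of the 10 was 0.07 (−0.12 to 0.17). AURKA, a mitotic kinase that stabilises MYC family proteins, was at 180, 133 and 105 CPM in knockdown and 108, 79.3 and 76.3 CPM in control libraries (0.66 ± 0.23), and the groups overlapped. The 16 genes of the SIN3-HDAC corepressor that the MXD proteins recruit had a median of 0.00051 (−0.15 to 0.06). Of these, 0 were higher and 1 lower, 6.25% against 15.5% of all genes. The lower one was ING1, a reader of histone methylation, at −0.44 ± 0.18. The 12 PRC1.6 partners of MGA had a median of −0.18 (−0.32 to −0.15). Of these, 0 were higher and 1 lower, 8.33% against 15.5% of all genes. That one was the heterochromatin protein CBX3, at 129, 202 and 118 CPM in knockdown and 246, 194 and 208 CPM in control libraries (−0.53 ± 0.22). Replicates 1 and 3 were below the controls and replicate 2 lay among them, whereas for MGA all 3 were below.

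The genes with the pattern most like MYC were found by the root mean square difference in log2 CPM, centred on each gene's mean, over the 6 libraries and 10127 genes with a mean log2 CPM of at least 3. They were KLF7 (difference 0.078), CHIC2 (0.106), FBXL20 (0.110), FRAT2 (0.114) and CAMK2N1 (0.116), where the median over all those genes was 0.547. CHIC2 was at 48.7, 29.7 and 50.4 CPM in knockdown against 72.5, 82.4 and 81.0 CPM in control libraries, a log2 fold change of −0.87 ± 0.22 (SE). For MGA, the member with the next smallest p, the most alike were SOS1 (0.065), PRKAA2 (0.071), FNBP1L (0.071), RALGAPA1 (0.076) and CTDSPL2 (0.084). SOS1 was at 19.4, 25.3 and 13.0 CPM in knockdown against 26.0, 27.0 and 30.6 CPM in control libraries. The likeness used values without a GC correction. With that correction the log2 fold change of MGA went from −0.63 to −0.50. That of SOS1 went from −0.54 to −0.26, PRKAA2 from −0.60 to −0.20 and FNBP1L from −0.75 to −0.52. RALGAPA1 went from −0.53 to −0.33 and CTDSPL2 from −0.54 to −0.25. The part of GC content in the likeness was not tested. No gene appears in both sets, but each set is only 5 of 10127 genes, so sharing none says little. The genes were picked for closeness to MYC or MGA, and their fold changes follow from that choice.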

How the data were processed

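Polyadenylated RNA was sequenced from strand-specific libraries, per the labels' protocols. The authors deposited whole-number read counts per gene and FPKM values rounded to 2 decimals. FastQC 0.9.5, TopHat2 and GRCh38 are named in the submitters' processing notes, while no source used here gives the counting program, its strand setting or its annotation, so reads in overlaps between genes may have gone to either gene. Coordinates and overlaps are from GENCODE 29 (GRCh38), to which 30871 of 31582 gene identifiers matched without version. Counts were filtered with filterByExpr, scaled by TMM and tested with edgeR 4.0.16 under R 4.3.3, with no covariate and Benjamini-Hochberg adjustment over 16394 genes. The SE was computed as |log2 fold change| over √F. CPM uses the scaled library sizes, and log2 CPM a prior count of 2. FPKM served for levels between genes and, as log2(FPKM + 1), for limma 3.58.1. Alternatives were other scalings, DESeq2 1.42.0, limma-voom, other filters, each library left out, a replicate block, a GC correction and FPKM.

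The members and gene lists were chosen with earlier results of these data known. Named genes were all members and, in each list, genes at an unadjusted p under 0.05 with groups apart, at most 6, or otherwise the smallest p, plus CALR, the family relatives and the 5 genes most like MYC and MGA. ODC1, CDK4, HK2 and PFKFB3 were named after their values were seen. CIP2A was matched by gene identifier. One MYC cofactor that the rule names is not reported here. Same-numbered knockdown and control libraries had correlations of deviations of 0.20, −0.12 and −0.22. Deviations from means of only 3 libraries cannot decide whether the numbers pair samples, and the labels state no pairing, so the main test used none.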

Additional observations from a re-analysis of the deposited data

How the results depend on the processing

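Of 18 alternatives, MYC kept its sign in all and an unadjusted p under 0.05 in all, with adjusted p-values of 0.015 to 0.621. MXD1, MXI1, MLXIP and MGA stayed negative and MLX and MXD3 positive in all 18. MYC passed the adjusted threshold with DESeq2 (−0.77), without the low-count filter (−0.76) and without knockdown replicate 2 (−0.59), where MLX (0.47) and MGA (−0.90) also passed. CALR, which did not pass in the main test (−2.22), passed without the filter (−2.19). With 1 library left out its adjusted p in edgeR was 0.054 to 0.560. With 1 library left out the log2 fold changes ranged from −3.55 to −1.78 for CALR, −0.97 to −0.59 for MYC, −0.29 to 0.066 for MAX, −0.72 to −0.33 for MXD1, 0.25 to 0.98 for MXD3, −0.26 to 0.23 for MXD4, −0.24 to −0.08 for MXI1, −0.085 to 0.13 for MNT, 0.25 to 0.47 for MLX, −0.36 to −0.01 for MLXIP and −0.90 to −0.37 for MGA. MXD4 turned negative with library size alone (−0.088, or 0.05 above the median of all genes, which shifted to −0.13), after the GC correction (−0.10), with it and the block (−0.11), and on the FPKM scale (−0.084 with pseudocount 1, filtered or not, and −0.090 with 0.1). MNT turned positive without the low-count filter (0.0046), and ODC1 without knockdown replicate 1 (0.033) or 2 (0.094). Genes passing the adjusted threshold over the whole table numbered 0 in the main test, 530 with DESeq2, 988 without the filter, 4 after the GC correction, 16 with it and the block, 5 on unfiltered FPKM and 0 to 2604 with 1 library left out. Members passing numbered 1 with DESeq2, 1 without the filter and 0 to 3 with 1 library left out. The unadjusted split of 1340 higher and 1206 lower became 730 and 1809 with library size alone. With the replicate number as a block, 0 genes passed, MYC was at −0.81 and MXD4 at 0.03, and not every library was most like its own number. Causes of these differences were not tested. Depth limits MYCL and ARRDC4, with at most 21 and 53 counts a library, and CDKN2B, with at most 59 counts in a knockdown library.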
